A study of Mus musculus with 32 samples.

Results

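The 10 genes described here encode transcription factors and one cofactor of granulocytes and of blood stem and progenitor cells: *Cebpa*, *Cebpb*, *Cebpd*, *Cebpe*, *Gfi1*, *Runx1*, *Runx3*, *Gata2*, *Lmo2* and *Erg*. They were chosen by symbol, and all 10 were among the 23620 genes listed in both deposited RNA-seq tables. Their IGF2BP3 peaks were found by Ensembl gene ID in the deposited peak lists of both cell types. IGF2BP3 is an RNA-binding protein of the insulin-like growth factor 2 mRNA-binding family. The study mapped its binding sites by enhanced crosslinking and immunoprecipitation (eCLIP), in which RNA bound to the protein is fixed with UV light, pulled down with an antibody against IGF2BP3 and sequenced.

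All cells carried MLL-Af4, the fusion oncogene that drives this mouse model. Lin- cells were lineage-depleted bone marrow cells of C57BL/6J or *Igf2bp3* knockout mice, transduced with a retrovirus that carries MLL-Af4, selected with G418 and immortalized in culture. CD11b+ cells were selected with magnetic beads from splenic tumors of mice with MLL-Af4 leukemia. eCLIP was made from wild type cells with MLL-Af4 only, with 6 Lin- libraries (3 biological and 3 technical) and 4 CD11b+ libraries (2 biological and 2 technical), each with a size-matched input (smInput). RNA-seq had 3 wild type and 3 knockout libraries of each cell type. The knockout, I3KO, is a germline deletion of *Igf2bp3* in the donor mice. For the leukemia, the paper transplanted donor marrow transduced with MLL-Af4 into lethally irradiated B6.SJL recipients. Mice with tumors therefore carried the deletion in donor-derived cells only. RNA-seq values per library were not analysed here, and the genotypes were not compared. The names of the eCLIP libraries of CD11b+ cells begin with bm, so whether they came from spleen or bone marrow is not settled.

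C/EBPα opens the granulocyte program in myeloid progenitors, and C/EBPε acts later, when secondary granules form. C/EBPβ is used when granulocytes are made under stress, C/EBPδ is induced in late granulocytes and by inflammation, and GFI1 is a repressor needed for neutrophil formation. RUNX1, RUNX3, GATA2 and the ETS factor ERG bind DNA in stem and progenitor cells, and LMO2 bridges other factors of the same complexes without binding DNA itself. *Runx1* has a distal and a proximal promoter, which give transcripts with different 5′ ends.

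IGF2BP3 peaks were concentrated on *Runx1* and *Lmo2*. In Lin- cells, *Runx1* held 44 and *Lmo2* 31 of the 99 smInput-filtered peaks of the 10 genes, summed over 6 libraries. In CD11b+ cells, *Runx1* held 46 and *Lmo2* 13 of 76 peaks over 4 libraries. *Cebpd* and *Cebpe* had no peak in any of the 10 libraries. Peaks that overlapped or adjoined on the same strand were joined over all libraries into sites, 60 in all, which are numbered within each gene from its 5′ end. The following sites carry most of what is described below. On *Runx1* they lie in introns and consist largely of short repeats, and the capitals mark CA repeats (the 6-mers ACACAC or CACACA), GT repeats (GTGTGT or TGTGTG) and CT repeats (CTCTCT or TCTCTC), read 5′ to 3′ on the strand of the transcript in GRCm38.
Runx1 site 5, chr16:92808444-92808517, minus strand: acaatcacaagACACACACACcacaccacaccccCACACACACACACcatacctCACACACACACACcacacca
Runx1 site 7, chr16:92761749-92761885, minus strand: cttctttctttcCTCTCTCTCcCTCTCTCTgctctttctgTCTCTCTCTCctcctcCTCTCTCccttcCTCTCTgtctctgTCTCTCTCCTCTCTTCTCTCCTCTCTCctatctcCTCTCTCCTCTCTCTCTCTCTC
Runx1 site 8, chr16:92758517-92758588, minus strand: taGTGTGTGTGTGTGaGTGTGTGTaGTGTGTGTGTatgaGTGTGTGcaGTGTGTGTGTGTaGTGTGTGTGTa
Runx1 site 16, chr16:92658357-92658413, minus strand: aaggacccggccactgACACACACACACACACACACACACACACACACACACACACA
Runx1 site 19, chr16:92653744-92653838, minus strand: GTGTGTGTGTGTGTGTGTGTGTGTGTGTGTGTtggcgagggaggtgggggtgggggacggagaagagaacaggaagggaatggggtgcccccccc
Erg site 1, chr16:95433559-95433622, minus strand: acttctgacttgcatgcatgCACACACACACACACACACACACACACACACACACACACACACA

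Other sites lay across an exon edge, among them 3 of 11 sites on *Lmo2*, 4 of 11 on *Runx3* and 1 of 24 on *Runx1*. The ones described most below are shown with the exonic bases in capitals, so that the splice site lies where the case changes. *Lmo2* site 10 is wholly intronic and has no capitals.
Lmo2 site 4, chr2:103970696-103970748, plus strand: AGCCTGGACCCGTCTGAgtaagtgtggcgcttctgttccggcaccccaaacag
Lmo2 site 8, chr2:103975960-103976023, plus strand: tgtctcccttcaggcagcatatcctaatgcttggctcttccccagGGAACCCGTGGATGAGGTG
Lmo2 site 10, chr2:103976464-103976537, plus strand: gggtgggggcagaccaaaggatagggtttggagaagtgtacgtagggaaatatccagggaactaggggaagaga
Runx3 site 8, chr4:135171059-135171142, plus strand: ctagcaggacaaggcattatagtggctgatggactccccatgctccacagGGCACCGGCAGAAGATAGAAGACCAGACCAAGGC
Runx1 site 23, chr16:92606120-92606174, minus strand: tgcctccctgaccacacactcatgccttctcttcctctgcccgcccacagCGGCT

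The files give no read depth for the eCLIP libraries, so their yield was judged by their peaks. The Lin- libraries had 4040 to 10042 filtered peaks (median 6927.5) and the CD11b+ libraries 7085 to 10054 (median 8053.5). The number in each peak's name, which CLIPper takes from the reads in the peak, is called reads here, and the median peak of a library had 5 to 8 of them. A gene with no peak is therefore not shown to be unbound. Peak numbers were scaled to 1000 filtered peaks of the library where libraries were compared. The labels do not say which biological library a technical one repeats, so technical libraries were given as values and not counted as replicates. Nothing in the labels says that biological replicates came from separate mice or cultures, so p-values measure the spread between these libraries.

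The RNA of all 10 genes was abundant in both cell types. The authors' tables give a mean normalized count over the libraries of both genotypes, which was divided here by the exon length of the gene in kilobases and ranked among the genes of the same table. The median percentile of the 10 genes was 90.7 in Lin- cells, with a range from 78.0 to 99.5, and 93.0 in CD11b+ cells, with a range from 66.7 to 98.4, where all genes have a median at the middle of the ranking by definition. The authors' mean ranged from 507 to 16456 normalized counts in Lin- cells and from 536 to 11461 in CD11b+ cells. The tables were normalized separately, so the text compares ranks between cell types and levels only within a table. Because these are means over libraries, their spread is unknown and the order of neighbors was not tested.

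*Lmo2* stood highest in both tables, with a mean of 7597 per kilobase in Lin- cells and 5291 in CD11b+ cells. *Cebpa* was the next in Lin- cells (2539.9 per kilobase), before *Runx3* (1762), *Cebpb* (1131), *Erg* (851), *Gfi1* (610.1), *Runx1* (523), *Cebpe* (408), *Gata2* (403) and *Cebpd* (293). In CD11b+ cells, the order of the means per kilobase was *Lmo2*, *Cebpb* (2614.5), *Cebpa* (1398), *Cebpe* (1158), *Gfi1* (1156), *Cebpd* (625), *Erg* (624), *Runx3* (397), *Runx1* (226) and *Gata2* (99.4). *Cebpe* and *Gata2* in Lin- cells, *Cebpe* and *Gfi1* in CD11b+ cells and *Cebpd* and *Erg* in CD11b+ cells were nearly equal neighbors.

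The rank of the granulocyte factors other than *Cebpa* was higher in CD11b+ cells. *Cebpd* stood at percentile 78.0 in Lin- and 91.2 in CD11b+ cells, *Cebpe* at 83.4 and 94.7, *Gfi1* at 88.9 and 94.7, and *Cebpb* at 94.7 and 97.1. The 6 other genes stood lower in CD11b+ cells. *Gata2* had the widest gap, from 83.2 in Lin- to 66.7 in CD11b+ cells, followed by *Runx3* (96.9 and 86.8) and *Runx1* (86.9 and 79.5), while *Cebpa* (98.0 and 95.4), *Erg* (92.5 and 91.2) and *Lmo2* (99.5 and 98.4) lay within 3 percentage points. The plot of RNA percentiles shows these gaps gene by gene.

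**Figure D1:**
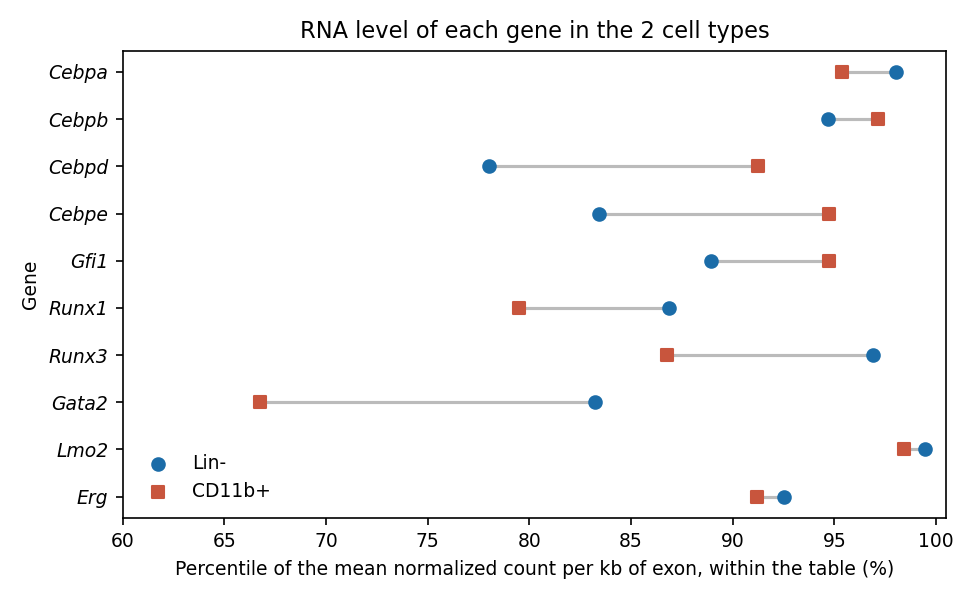
Percentile of each gene's RNA level (x axis, %, starting at 60) in the Lin- (circles) and CD11b+ (squares) tables, from the authors' mean normalized count per kilobase of exon, with no error because only a mean over libraries was used. *Cebpb*, *Cebpd*, *Cebpe* and *Gfi1* lie to the right in CD11b+ cells, and the other 6 genes lie to the right in Lin- cells.

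Cell type markers also differed in rank between the tables. Their summed means are given on the scale of each table and are not compared. The 6 neutrophil markers (*S100a8*, *S100a9*, *Ltf*, *Camp*, *Ngp* and *Ly6g*) summed to a mean of 9214 in the Lin- and 109436 in the CD11b+ table. Their median percentiles were 84.7 and 99.3, and all 6 stood higher in CD11b+ cells. The 6 progenitor markers (*Kit*, *Cd34*, *Flt3*, *Prom1*, *Meis1* and *Hoxa9*) summed to 32535 and 5650.4, with median percentiles of 91.9 and 63.5. Of them, 5 stood lower in CD11b+ cells and *Prom1* stood higher, at 64.3 against 45.2 in Lin- cells. The 6 myeloid markers summed to 36105 and 106443 and had median percentiles of 96.2 (5 of them listed) and 97.2. Of those 5, 3 stood higher in CD11b+ cells, and *Cd68* (97.8 and 97.2) and *Fcgr1* (56.7 and 44.3) stood lower. Among the 6, *Itgam*, which encodes CD11b itself, had a mean of only 17.0 in the CD11b+ table, at percentile 31.2, and was not analysed in the Lin- table. B cell markers summed to 136 and 372, T cell markers to 123 and 24.0 and erythroid markers to 169 and 82.4. These lists had median percentiles of 23.0 to 47.8, and 4 of their 10 genes listed in Lin- and 3 of 11 in CD11b+ cells had a mean under 10. The part of cell composition in the ranks above was not tested, and in bulk RNA fewer cells of a type and less RNA per cell cannot be told apart.

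IGF2BP3 peaks were found on 8 of the 10 genes in Lin- cells and on 7 in CD11b+ cells, counting a filtered peak in any library. The 8 were all but *Cebpd* and *Cebpe*, and in CD11b+ cells *Gata2* was also without a peak. Over all genes listed, 26.5% had such a peak in Lin- and 25.6% in CD11b+ cells. Peaks were more frequent on abundant RNA. Among genes with an authors' mean of at least 500, which all 10 genes have in both tables, the shares were 66.5% and 60.9%. A peak in at least 2 biological libraries was found on 5 genes in Lin- cells (*Cebpb*, *Runx1*, *Runx3*, *Lmo2* and *Erg*) and on 3 in CD11b+ cells (*Runx1*, *Runx3* and *Lmo2*). The corresponding shares were 13.7% of all genes and 37.7% of the abundant ones in Lin- cells, and 10.2% and 29.5% in CD11b+ cells. Against abundant genes, the counts of 8 and 7 were near the background, and so were those of 5 and 3. The Lin- count of 5 became 3 with peaks at a CLIPper p below 0.001 or without biological library 2 or 3.

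**Figure D2:**
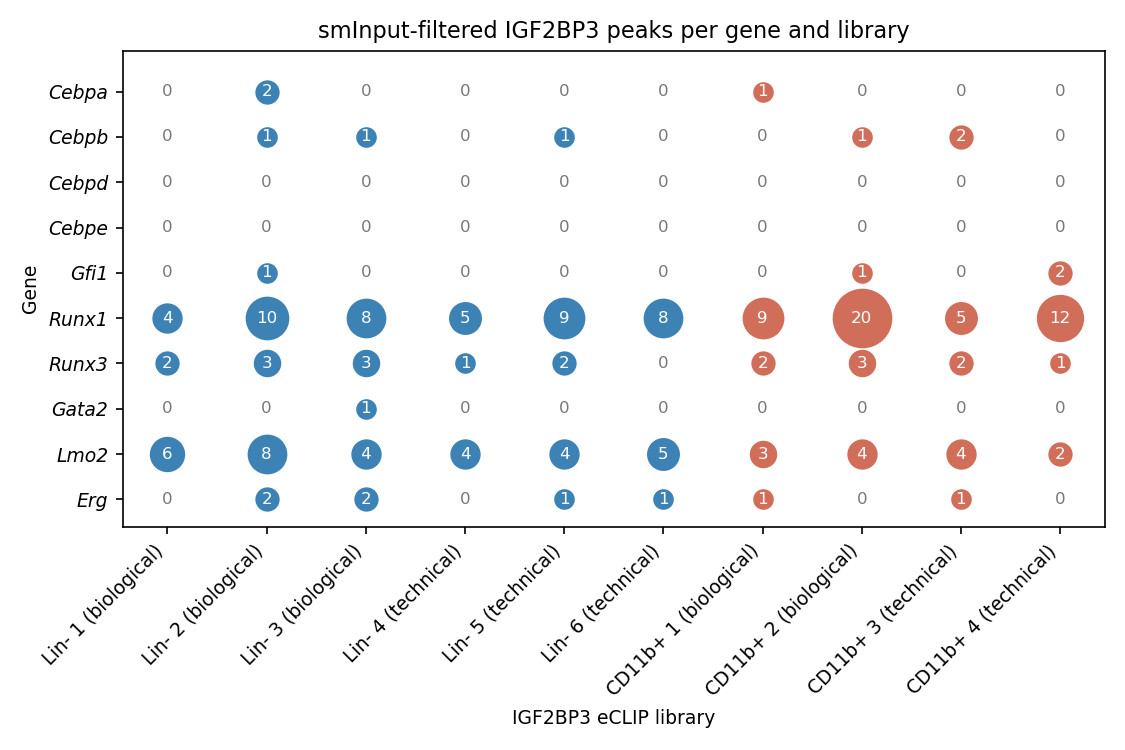
Number of smInput-filtered IGF2BP3 peaks (printed in each cell, circle area grows with it) for each gene (rows) in each eCLIP library (columns, Lin- blue, CD11b+ red). *Runx1* and *Lmo2* have peaks in all 10 libraries, *Runx3* in 9, and *Cebpd* and *Cebpe* in none.

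The smInput libraries, which measure the background of the assay, had few peaks on these genes and few in all. They had 217 to 1808 peaks in Lin- and 1381 to 1885 in CD11b+ cells. The eCLIP libraries had 5455 to 11606 and 8566 to 11771 before the filter. A site or gene without a smInput peak, here and below, is therefore not shown to be free of background. Before the input filter, the 10 genes had a mean of 1.89 ± 0.45 peaks per 1000 peaks of the library in Lin- eCLIP (SD, n = 3 biological libraries) and 1.05 ± 0.53 in the matched smInput. In CD11b+ cells, the means were 2.15 ± 0.68 and 1.43 ± 0.52 (SD, n = 2). The difference between eCLIP and smInput was 0.85 in Lin- and 0.72 in CD11b+ cells. Without eCLIP library 2 the CD11b+ difference was 0.243, and without eCLIP library 1 it was 1.20. Without smInput library 2 it was 0.352, and without smInput library 1 it was 1.09. It was smaller than the spread between libraries paired with their own smInput (SD of the differences 0.96 and 1.20), with eCLIP above smInput in 2 of 3 Lin- pairs and 1 of 2 CD11b+ pairs. The 19 smInput peaks of all libraries were on *Runx1* (13), *Runx3* (5) and *Erg* (1), none was on *Lmo2*, and all lay in introns. They joined into 6 regions, of which 4 overlapped an eCLIP site. The filter removed 6 eCLIP peaks of the 10 genes, 2 each on *Runx1*, *Runx3* and *Erg*. The eCLIP and smInput peaks were called with different deduplication and CLIPper settings according to their headers, and the effect of this was not tested.

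*Runx1* had peaks in every library. It spans chromosome 16 from 92601466 to 92826149 (minus strand) and encodes the DNA-binding subunit of core-binding factor. The 3 biological Lin- libraries had 4, 10 and 8 peaks and the 3 technical ones 5, 9 and 8. The biological CD11b+ libraries had 9 and 20, and the technical ones 5 and 12. Per 1000 filtered peaks, the biological libraries had 0.543, 0.996 and 0.921 in Lin- cells and 1.06 and 1.99 in CD11b+ cells. The Lin- mean of 0.820 ± 0.243 (SD, n = 3) was thus below the CD11b+ mean of 1.52 ± 0.66 (SD, n = 2), and the groups did not overlap. The exact permutation test gave a two-sided p of 0.1, the smallest that its 10 splits allow, and an adjusted p of 0.696 over the 9290 genes tested (Benjamini-Hochberg). With peaks at a CLIPper p below 0.001, the groups overlapped. CD11b+ libraries were higher without overlap for 10.6% of those genes. The technical libraries overlapped, from 1.24 to 1.77 in Lin- and from 0.659 to 1.69 in CD11b+ cells. CLIPper often split adjoining peaks on this gene. Joined within a library, the 9 and 20 peaks of the biological CD11b+ libraries were 6 and 13 regions, against 4, 8 and 7 in Lin- cells. Measured as bases covered, the biological libraries of *Runx1* overlapped.

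By merged regions, *Runx1* was among the most bound genes. It had 15 regions in Lin- cells (rank 45 of 7627 genes with a region) and 17 in CD11b+ cells (rank 22 of 7126). It is a long gene of 224684 bases, and 22 of its 24 sites lay in introns, 1 in the 3′ UTR and 1 across the edge of the last exon. At least 1 of the repeat 6-mers printed in capitals above was in 22 of the 24 sites. CA repeats were in 14 sites, GT repeats in 7 and CT repeats in 1. The 14 sites with CA repeats include sites 5 and 16 and site 24 in the 3′ UTR. A 30-base window on site 24, around the centre of its highest peak (chr16:92603004-92603033, minus strand), reads aACACACACACACACACACACACACACACA. It was found in Lin- libraries 4 and 5 and CD11b+ libraries 1 and 3, with 3 to 27 reads.

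Of the 24 *Runx1* sites, 8 had peaks in both cell types. Site 19, a GT repeat followed by a G-rich stretch, lies 172358 bases from the 5′ end, in an intron and 9399 bases from the nearest splice site. It was found in 9 of 10 libraries, with 16, 42 and 16 reads in the biological Lin- and 66 and 61 in the biological CD11b+ libraries. The technical libraries had 0, 17 and 10 reads there in Lin- and 49 and 93 in CD11b+ cells. Only Lin- library 4, which had the fewest filtered peaks, lacked it. Site 16, a CA repeat, was found in 4 of 6 Lin- libraries with 5 to 24 reads and in 3 of 4 CD11b+ libraries with 20 to 80 reads. No smInput peak overlapped site 16 or site 19.

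Site 7 had peaks in all 6 Lin- libraries and in no CD11b+ library. This stretch is 137 bases long and 96.4% C or T. Its reads were 10, 41 and 42 in the biological and 11, 17 and 24 in the technical Lin- libraries. The smInput libraries had no peak there. Sites 3 and 5, a pair of CA-rich stretches near the 5′ end, had peaks in Lin- libraries 2, 3, 5 and 6 and in no CD11b+ library. At site 5 the reads were 25 and 20 in the biological and 27 and 7 in the technical libraries. In contrast to site 7, site 5 was overlapped by smInput peaks in 2 Lin- libraries and 1 CD11b+ library.

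Other sites had peaks in CD11b+ libraries and in no Lin- library. Sites 9, 14, 17 and 20 each had peaks in CD11b+ libraries 2 and 4, with 10 to 33 reads. CD11b+ libraries 1 and 3 lacked all 4 of these sites, so the biological CD11b+ libraries differed from each other. Site 8, a GT repeat, had 30, 55 and 19 reads in CD11b+ libraries 1, 2 and 4 and 40 and 14 in Lin- libraries 2 and 5. It was present in both cell types but in 5 of 10 libraries only.

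The position of the *Runx1* peaks along the gene was compared with its promoters. The annotated proximal start lies 128821 bases from the annotated 5′ end of the gene, and the bases upstream of that start are transcribed only from the distal promoter. Upstream of the proximal start, the biological Lin- libraries had 1 of 4, 8 of 10 and 5 of 8 peaks, and the technical ones 4 of 5, 6 of 9 and 5 of 8. The CD11b+ libraries had 2 of 9 and 11 of 20 peaks there in the biological and 0 of 5 and 5 of 12 in the technical libraries. By reads, the upstream part held 10, 131 and 85 in the biological Lin- libraries beside 28, 66 and 44 downstream. It held 30 and 116 in the biological CD11b+ libraries beside 95 and 249 downstream. All CD11b+ libraries had more reads downstream, and 5 of 6 Lin- libraries had more upstream, the exception being library 1. This split was made after the sites had been seen and was not tested.

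**Figure D3:**
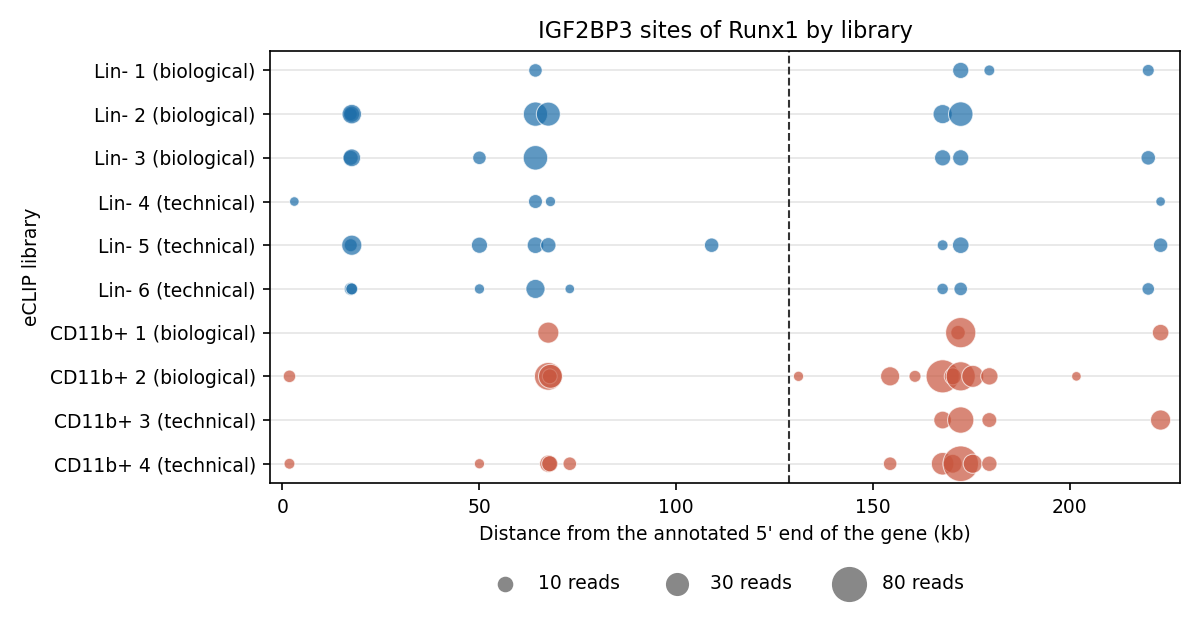
IGF2BP3 sites of *Runx1* by distance from the annotated 5′ end (x axis, kb) in each eCLIP library (rows), with circle area growing with the reads of the site. The dashed line is the proximal transcription start. The site at 64.3 kb is in all 6 Lin- and no CD11b+ libraries, and the site at 172 kb is in 9 of 10 libraries.

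*Lmo2* had peaks in every library too, with more per 1000 in each biological Lin- than in each biological CD11b+ library. It lies on the plus strand of chromosome 2 from 103957986 to 103981878 and encodes the LIM domain bridge between the TAL1 and GATA factors. The biological Lin- libraries had 6, 8 and 4 peaks and the technical ones 4, 4 and 5. The CD11b+ libraries had 3 and 4 in the biological and 4 and 2 in the technical libraries. Per 1000 filtered peaks, these were 0.815, 0.797 and 0.461 in Lin- and 0.352 and 0.398 in CD11b+ cells. The means were 0.691 ± 0.200 (SD, n = 3) and 0.375 ± 0.032 (SD, n = 2), and the groups did not overlap. The exact permutation test gave a two-sided p of 0.2 (adjusted p = 0.780 over 9290 genes). Lin- libraries were higher without overlap for 9.34% of all genes tested. The technical libraries had 0.616 to 1.11 in Lin- and 0.282 to 0.527 in CD11b+ cells, and over libraries of both kinds the cell types overlapped. Without scaling, the biological libraries overlapped at 4 peaks.

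Of the 11 *Lmo2* sites, 3 crossed an exon edge, 5 lay in introns and 3 had peaks in both cell types. Site 8 is the 3′ splice site of the exon from 103976005 to 103976220, and covers the end of the intron and the start of the exon. It was the only one of the 60 sites with a peak in all 10 libraries. Its reads were 12, 14 and 42 in the biological and 5, 19 and 21 in the technical Lin- libraries, and 22 and 23 in the biological and 21 and 23 in the technical CD11b+ libraries. This put it above 48.3% to 98.0% of the filtered peaks of the library in Lin- cells and above 85.4% to 87.7% in CD11b+ cells. No smInput library had a peak on *Lmo2*.

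Upstream of site 8, the exons that end at 103970712 and the intron after them carried a cluster of 5 sites in Lin- cells. Site 4 is the 5′ splice site of that exon, with 13, 15 and 30 reads in the biological and 6, 3 and 21 in the technical Lin- libraries. The only peak of the cluster in CD11b+ cells was at site 4, with 7 reads in biological library 2. Site 1, within the same exon (chr2:103970298-103970402), had 15, 22 and 10 reads in the biological Lin- libraries, 8 and 3 in technical libraries 5 and 6, and none in CD11b+ cells. It lies in the 5′ UTR of 2 annotated transcripts and is coding over a few bases of another, so its class depends on the transcript. An annotated 5′ splice site also lies within site 1, and an annotated 3′ splice site within site 2. Neither was counted as crossing an exon edge, since each of their bases is exonic in some transcript.

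Around the exon of site 8, the sites were mixed. Site 9, at its 5′ splice site (chr2:103976217-103976246), had 4 reads each in biological Lin- libraries 1 and 2 and no peak in CD11b+ cells. Site 10 lies 244 bases into the intron after it and had 34 and 15 reads in the biological and 28 and 11 in the technical CD11b+ libraries. Its only Lin- peak had 3 reads, in biological library 2. Site 7, 303 bases before the exon (chr2:103975645-103975702), had 20 and 13 reads in CD11b+ libraries 1 and 3 and none in Lin- cells. *Lmo2* had no CA repeat in any of its 11 sites.

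**Figure D4:**
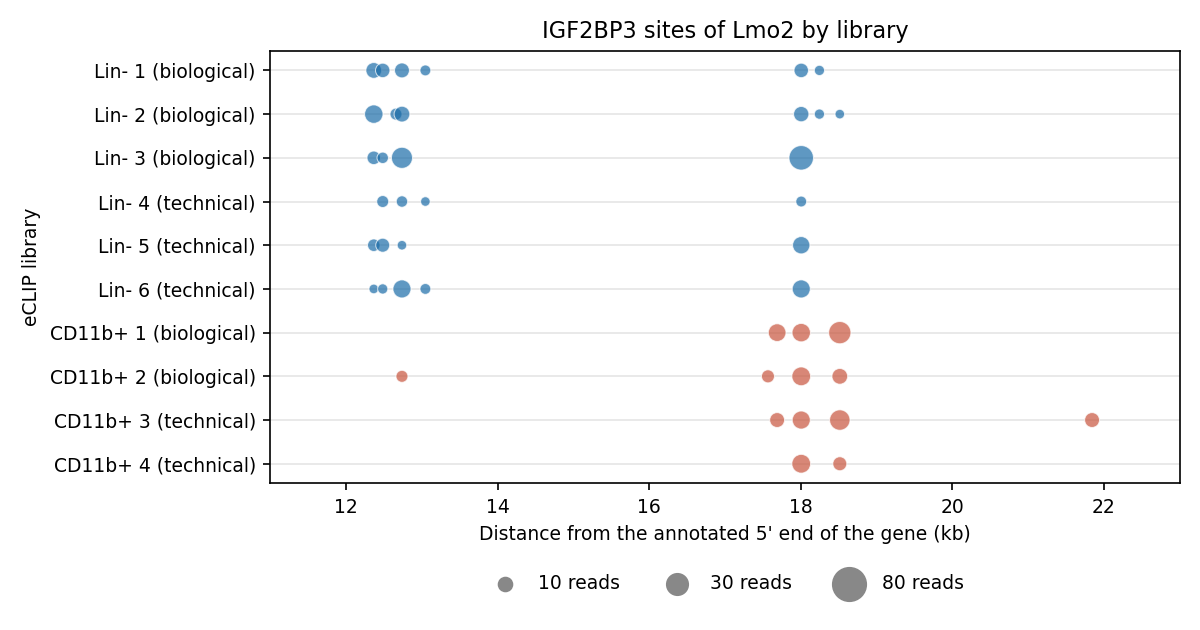
IGF2BP3 sites of *Lmo2* by distance from the annotated 5′ end (x axis, kb, starting at 11) in each eCLIP library (rows), with circle area growing with the reads of the site. The site at 18.0 kb is in all 10 libraries, at least 1 of the 5 sites from 12.4 to 13.0 kb is in each of the 6 Lin- libraries and in 1 CD11b+ library, and the site at 18.5 kb is in 4 CD11b+ libraries and 1 Lin- library.

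*Runx3*, a RUNX factor of myeloid and lymphoid cells, had peaks in 9 of 10 libraries and no site shared between the cell types. It lies on the plus strand of chromosome 4 from 135120652 to 135177990. The biological Lin- libraries had 2, 3 and 3 peaks and the technical ones 1, 2 and 0. The CD11b+ libraries had 2 and 3 in the biological and 2 and 1 in the technical libraries. Per 1000 filtered peaks, the means of 0.305 ± 0.037 (SD, n = 3) in Lin- and 0.267 ± 0.045 (SD, n = 2) in CD11b+ cells overlapped (exact permutation p = 0.4, adjusted p = 0.780). With peaks at a CLIPper p below 0.001, they did not overlap and CD11b+ cells were higher. Without Lin- library 1 or CD11b+ library 2 they did not overlap either, with Lin- cells higher. Its 5 Lin- sites lay in exons or across exon edges. Site 8, the 3′ splice site of the exon from 135171109 to 135171258, had 6, 5 and 3 reads in the biological Lin- libraries, 11 in technical library 5 and none elsewhere. Its 6 CD11b+ sites lay in introns (4) or the 3′ UTR (2), and each had a peak in 1 or 2 libraries. A CA repeat was in 4 of those 6 and in no Lin- site. Before the input filter, site 5 had a peak in all 4 CD11b+ libraries, and a peak of 1 CD11b+ smInput library overlapped it.

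*Erg*, an ETS factor of stem cells, had 1 site in both cell types. It spans chromosome 16 from 95359169 to 95586593 (minus strand). Site 1, a CA repeat in an intron 23607 bases from the nearest splice site, had 5 and 13 reads in biological Lin- libraries 2 and 3, 13 and 11 in technical libraries 5 and 6, and 20 and 33 in CD11b+ libraries 1 and 3. Before the input filter, all 4 CD11b+ libraries had a peak there, and 1 CD11b+ smInput peak overlapped it. *Erg* had 2 further sites, each in 1 Lin- library. Its means of 0.143 ± 0.125 (SD, n = 3) and 0.0587 ± 0.0830 (SD, n = 2) peaks per 1000 overlapped (exact permutation p = 0.5, adjusted p = 0.914).

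*Gata2*, a zinc finger factor of stem cells and mast cells on the plus strand of chromosome 6 (88193891 to 88207032), had 1 peak with 6 reads in biological Lin- library 3. The peak ended on the base where the exon from 88202419 to 88202564 begins. The other 9 libraries had none.

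The granulocyte factors had few peaks, in places that seldom recurred. *Cebpb* is a gene with a single exon on the plus strand of chromosome 2 (167688915 to 167690418). It had 1 peak in Lin- libraries 2, 3 and 5 each, 1 in CD11b+ library 2 and 2 in CD11b+ library 3. Of its 5 sites, only site 2, in the coding sequence (chr2:167689548-167689609), was in more than 1 library, with 7 and 5 reads in Lin- libraries 2 and 3. Its Lin- sites were in the coding sequence, and its CD11b+ sites were in the 3′ UTR (2) and the coding sequence (1). *Cebpa* (chromosome 7, plus strand, 35119293 to 35121928) had 2 coding peaks with 8 and 3 reads in Lin- library 2 and 1 peak with 10 reads in the 3′ UTR in CD11b+ library 1. Although its RNA stood at percentile 98.0 in Lin- cells, 5 of 6 Lin- libraries had no peak on it. *Cebpd* and *Cebpe*, at percentiles 91.2 and 94.7 in CD11b+ cells, had none before or after the filter.

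*Gfi1* spans chromosome 5 from 107716657 to 107726036 (minus strand). Its site 2 (chr5:107717922-107717976) lies in an intron, 4 bases from a 3′ splice site, and was found in Lin- library 2 and CD11b+ libraries 2 and 4 with 4, 11 and 5 reads. Its site 1, across the edge of an exon, was in CD11b+ library 4 alone. Neither *Cebpa*, *Cebpb*, *Gfi1* nor *Gata2* separated the cell types in peaks per 1000 (exact permutation p from 0.6 to 1, adjusted p = 1).

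Summed over the 10 genes, the biological libraries had 1.63, 2.69 and 2.19 peaks per 1000 in Lin- and 1.88 and 2.88 in CD11b+ cells. The means of 2.17 ± 0.53 (SD, n = 3) and 2.38 ± 0.71 (SD, n = 2) differed by less than the spread between libraries. Among the 51 sites with a peak in a biological library, 3 were in all 3 biological Lin- libraries and in neither of CD11b+ cells (*Runx1* site 7, *Lmo2* site 1 and *Runx3* site 8). Over all genes this held for 2.6% of 25835 sites. None of the 51 was in both biological CD11b+ libraries and in no Lin- one, against 6.33% of all sites. Before the input filter, *Runx3* site 5 had a peak in all 4 CD11b+ libraries and in no Lin- one. After it, *Runx1* site 19 and *Lmo2* site 8 were in all 5 biological libraries, as were 1.92% of all sites. Of the 60 sites, 45.0% came from 1 library and 21.7% had peaks in both cell types, where all sites had 57.8% and 15.1%.

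Where the peaks lay within these genes differed between the cell types. Merged per cell type, 18 of 37 regions in Lin- cells were intronic (48.6%, Wilson 95% interval 33.4% to 64.1%) and 27 of 36 in CD11b+ cells (75.0%, 58.9% to 86.2%). These intervals cover counting error only, and regions of 1 gene are not independent. Over all genes, the intronic share was 37.1% in Lin- and 76.0% in CD11b+ cells. Regions classed as coding, which includes those that touch coding sequence only at their edge, made up 17 of 37 in Lin- and 3 of 36 in CD11b+ cells. Those in 3′ UTRs were 1 and 6. An exon edge was crossed by 10 of 37 regions in Lin- and 2 of 36 in CD11b+ cells, against 45.5% and 10.4% over all genes. Per library, the intronic share of the peaks of the 10 genes was 41.7%, 59.3% and 47.4% in the biological Lin- and 87.5% and 89.7% in the biological CD11b+ libraries. The technical libraries had 52.9% to 71.4% and 64.3% to 82.4%, so libraries of both kinds overlapped, while over all genes they did not (31.8% to 40.0% and 71.3% to 81.0%). *Runx1* was mostly intronic in both, with 13 of 15 and 16 of 17 regions. Without it, 5 of 22 regions were intronic in Lin- (22.7%, 10.1% to 43.4%) and 11 of 19 in CD11b+ cells (57.9%, 36.3% to 76.9%). With the position taken at the centre of each region, the intronic shares of the 10 genes were 73.0% in Lin- and 80.6% in CD11b+ cells. The gap between the cell types was thus smaller by that rule. With biological libraries only, the shares were 45.2% and 82.8%. They were 50.0% and 82.1% at a CLIPper p below 0.001, and 34.8% and 56.3% as a mean over genes. In the main count, a region was classed by any base that it touched, so one across an exon edge counted as exonic even with its centre in an intron. Regions across an exon edge, 10 of 37 in Lin- and 2 of 36 in CD11b+ cells, can therefore change class with the rule.

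**Figure D5:**
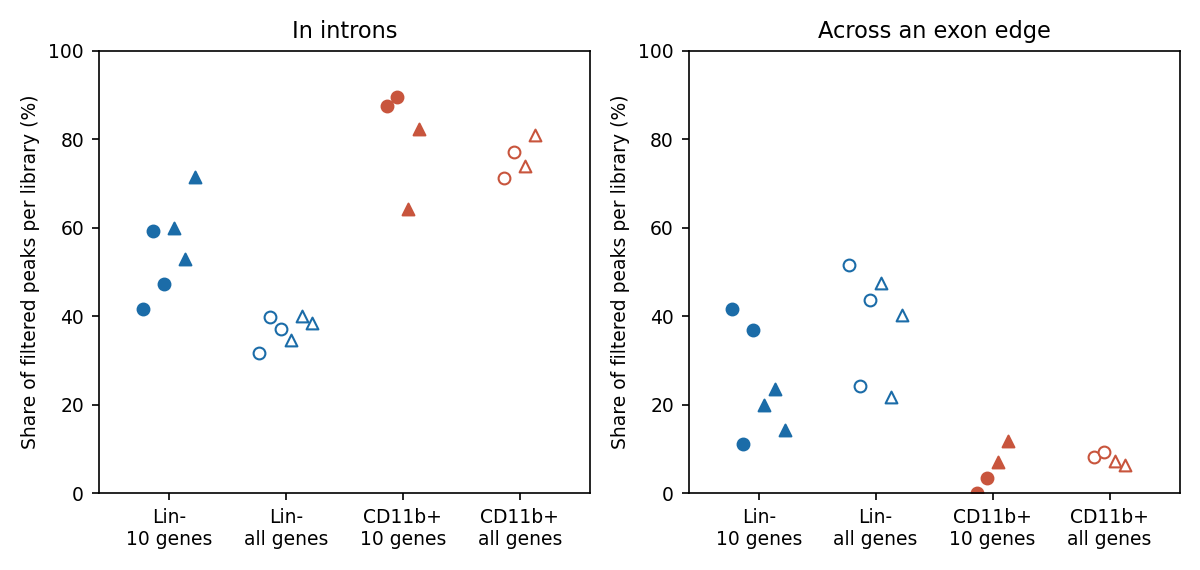
Share of filtered peaks per eCLIP library (y axis, %) in introns (left) and across an exon edge (right), for the 10 genes (filled) and all genes (open), with circles for biological and triangles for technical libraries. Over all genes the cell types do not overlap in either panel, while for the 10 genes the intronic shares run from 41.7% to 71.4% in Lin- and from 64.3% to 89.7% in CD11b+ cells.

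CA repeats were frequent on these genes through *Runx1*. They were counted here because the study names CA-rich elements for IGF2BP3, and the choice of 6-mers is not the study's. ACACAC or CACACA, which overlap each other and were searched on the strand of the transcript only, were in 12 of 37 regions in Lin- cells (32.4%, 19.6% to 48.5%) and 14 of 36 in CD11b+ cells (38.9%, 24.8% to 55.1%). Over all genes the shares were 8.54% and 17.4%. *Runx1* held 10 of the 12 and 9 of the 14. In the regions of the other genes, the 6-mers were in 2 of 22 and 5 of 19. Among intronic regions alone, the shares were 10 of 18 and 11 of 27 for the 10 genes, against 19.3% and 21.3% over all genes. GTGTGT or TGTGTG was in 4 of 37 and 6 of 36 regions, all on *Runx1*, against 8.25% and 24.5% over all genes. CTCTCT or TCTCTC was in 3 and 2 regions, against 7.96% and 5.82%. The 5-mer GGACT, a form of the m6A consensus, was in 2 and 0 regions, against 3.04% and 2.65%. Reads from such repeats can align to more than 1 place in a genome. How far this set the peaks on *Runx1* was not tested, and 3 of the 6 smInput regions on the 10 genes held a CA repeat as well.

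Family members and partners were given by counts for context. Of 19 such genes, 18 were listed in each table, and 15 had a filtered peak in Lin- and 11 in CD11b+ cells. The genes with the most merged regions in Lin- cells were *Etv6* (14), an ETS repressor, *Runx2* (13), a RUNX factor of bone, and, with 6 each, *Ldb1* and *Rcor1*, which join the LMO2 and GFI1 complexes. In CD11b+ cells they were *Etv6* (15), *Runx2* (15) and *Fli1* (9), an ETS factor close to ERG. *Runx1*, with 15 and 17 regions, exceeded each of them in both cell types.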

How the data were processed

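The authors made eCLIP and smInput libraries from wild type cells with MLL-Af4, ran CLIPper on each library (p below 0.05) and deposited the peak lists both before and after a filter that drops peaks overlapping smInput peaks. Each peak has a p and a name with its gene ID and a number, read here as the reads in the peak. RNA-seq was single-end and strand-specific, and the submitters' processing notes name STAR 2.5.3a, Bowtie2, DESeq2 and mm10. A table comparing the genotypes was deposited for each cell type. Of it, only the mean normalized count over libraries was used, a signal value on the authors' scale. The other columns hold the authors' fold changes, standard errors, Wald statistics, p-values and peak marks, and were not used.

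Genes were matched by Ensembl ID to GENCODE M21 (GRCm38), coordinates are counted from 1, and sequence came from GRCm38.p6. Peaks on the same strand were joined where they overlapped or adjoined. A region was classed as coding, 5′ UTR, 3′ UTR, noncoding exon or intron, in this order of preference, by any base that it touched. Peaks per 1000 filtered peaks were compared by an exact two-sided permutation test per gene over all genes with a filtered peak in a biological library (3 against 2 libraries, 10 splits, no p below 0.1), with Benjamini-Hochberg adjustment, and the call was that the groups do not overlap. The test and the call were tried on simulated peak counts, with a large change placed only on genes with a mean of at least 2 peaks. Genes with fewer peaks and smaller changes were not covered. Shares have Wilson 95% intervals. The named genes are the 10 genes and, from 19 family members and partners, the 3 with the most merged regions in each cell type, ties included. The genes, lists and tests were chosen with earlier results of these data known. Of the alternatives, 56 were planned and 1 was added after seeing the data. The repeat 6-mers other than CA, the 30-base window and the split of *Runx1* at its proximal start were also added then. Each eCLIP library pairs with its own smInput by the library name in the labels. Python 3.11.15, pandas 2.3.3, NumPy 2.4.6, SciPy 1.17.1, pysam 0.24.0, samtools 1.23.1 and matplotlib 3.10.9 were used.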

Additional observations from a re-analysis of the deposited data

Results flagged for a closer look

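In Lin- cells, 1 library stood apart from the other 5 for *Runx3*. The value was 0 peaks per 1000 filtered peaks in technical library 6, and 0.248 to 0.345 in the others. Of 17 groups of 4 or 6 libraries examined, this was the only one with such a gap by Dixon's criterion. Chance meets it in about 1 in 20 groups of independent, continuous values. Here the values come from 0 to 3 peaks per library, so that rate need not hold.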

How the results depend on the processing

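Read depth is unknown, so a gene without a peak may be bound below detection, and an exact test of 3 against 2 biological libraries cannot reach p = 0.05. With a CLIPper p below 0.001, the genes with a peak in at least 2 biological Lin- libraries fell from 5 to 3, and leaving out 1 biological library gave 3 to 5. In CD11b+ cells, counting technical libraries too raised the 3 such genes to 6. The biological libraries did not overlap for 2 of the 8 genes tested (*Runx1* and *Lmo2*), and for 1856 of 9290 over all genes. The count of 2 was thus near the background. It became 0 with unscaled peaks, 1 by bases covered (*Lmo2*) and 0 with libraries of both kinds. Leaving out 1 biological library gave 2 to 5. The 5 were *Runx1*, *Lmo2*, *Erg*, *Cebpb* and *Runx3* without Lin- library 1. Groups that do not overlap cannot come to overlap when a library is left out. *Runx1* and *Lmo2* therefore stayed by construction, and the count could only stay or rise. At a CLIPper p below 0.001, the genes without overlap were *Lmo2* and *Runx3*, the latter then higher in CD11b+ cells, and *Runx1* was no longer among them. The share over all genes is not given for these alternatives. Unscaled, eCLIP exceeded smInput by 18 peaks in Lin- and 21 in CD11b+ cells, a difference in unit. Taking the centre of each region put the Lin- intronic share at 73.0% (CD11b+ 80.6%), and a mean over genes put the CD11b+ share at 56.3% (Lin- 34.8%). Regions across an exon edge can change class with the position rule. Apart from this and the change of unit, causes were not tested. The difference in peaks per 1000 summed over the 10 genes, Lin- minus CD11b+, was -0.21. It was -0.22 with replicates 1 and 2 paired by number, which the labels do not say are related, 0.20 with all libraries, and between -0.72 and 0.29 without 1 biological library. It was 0.23 with adjoining peaks of a library joined. Its sign is therefore not settled, though each of these moved it by less than the spread between libraries. With the replicate block of each eCLIP library and its own smInput, the differences of 0.85 and 0.72 are the same by construction. Without 1 library, the CD11b+ difference ran from 0.243 (without eCLIP library 2) to 1.20 (without eCLIP library 1), and the Lin- one from 0.627 to 1.15. Of 78 recomputed values, 66 were classed as the same and 12 as moved. Those classed as the same include differences that changed sign and values equal by construction. This count therefore does not measure how well the results hold.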
